A study of Homo sapiens with 4 samples.

Results

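The 9 genes described here code for histone variants made outside the replication-dependent set: H2AX, H2AZ1, H2AZ2, H2AJ, MACROH2A1, MACROH2A2, H3-3A, H3-3B and H1-10. They were chosen by gene symbol, and all 9 had a row among the 20515 genes of the count table and passed the filter on low counts. Poly(A) RNA had been sequenced from the T47D cell line, which derives from a luminal carcinoma of the human breast, in 2 libraries of baicalein-treated cells and 2 control libraries labelled as having no treatment. Baicalein is a flavone from Scutellaria roots that is known to inhibit lipoxygenases. The sources used here do not give its dose, duration or vehicle. They also do not say that libraries of a group are separate cultures, so the spread behind each p-value may be technical. The comparison addresses which of these genes differ in expression after baicalein.

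Most histone proteins are made in S phase from clustered genes whose messages end in a stem-loop and carry no poly(A) tail. Variant histones are made through the cell cycle from single genes, mostly with polyadenylated messages, and enter chromatin with the help of dedicated chaperones. H2AX is phosphorylated around DNA breaks, H2A.Z marks promoters and enhancers, and the macroH2A proteins carry a large macro domain. H3.3 replaces H3 at active genes and at heterochromatic repeats, and H1-10 codes for a linker histone that binds DNA between nucleosomes.

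Of the 9 genes, 8 had lower counts in baicalein-treated cells and 0 were higher by edgeR's quasi-likelihood test (Benjamini-Hochberg adjusted p under 0.05, over all tested genes). The count of higher ones was also 0 at an unadjusted p under 0.05, with DESeq2 and with limma-voom. H2AX fell furthest, 3.20-fold, followed by H2AZ1 with 2.29-fold and H2AZ2 with 2.01-fold. H3-3A, H2AJ and MACROH2A2 fell 1.76-fold, 1.74-fold and 1.63-fold, and MACROH2A1 and H1-10 by less than 1.5-fold. H3-3B, which codes for the same protein as H3-3A, did not pass the test. Among all 18369 tested genes 37.6% were called lower and 37.4% higher (75.0% in either direction), so a call by itself sets few genes apart here. A change beyond 1.5-fold was called lower in 6 of the 9 genes, and in 19.5% of all tested genes (16.8% were higher by that test, 36.3% either). The median log2 fold change was -0.80 over the 9 genes and 0.00 over all tested genes. In bulk RNA, fewer cells that express a gene and less RNA of it per cell cannot be told apart.

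Total counts were 38597207 to 56732569 per library, so that 1 CPM (a count scaled to library size) stood for 37.2 to 54.7 counts, and the 9 genes had 1063 to 24945 counts each per library. All 9 luminal markers examined were detected, and they summed to 7293 and 7410 CPM in baicalein-treated and 12880 and 14170 CPM in control libraries. Not all of them fell, since 7 were called lower, 1 higher and 1 neither. Among all tested genes 37.6% were called lower and 37.4% higher. Of 9 leukocyte, endothelial and stromal markers, 5 had rows in the count table and 4 (CD3E, PECAM1, VWF and PDGFRB) had none. The smallest row total is 10, so a missing row does not show that a gene had 0 counts. The 5 markers with rows summed to 172 and 163 CPM in baicalein-treated and 121 and 132 CPM in control libraries. Most of it was COL1A1, while the leukocyte gene PTPRC had 5 and 6 counts against 0 in each control. Control 1 had 1573 counts of the non-coding RNA gene RN7SK and control 2 had 213, whereas none of the 8 falls among the variant genes was lost without either control. The part of these differences in the results was not tested. CPM values are scaled by TMM factors, errors of means are SDs over the 2 libraries of a group, and a bare value in brackets or after a gene is its log2 fold change, baicalein over control.

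One sequence was found in H2AX transcripts and in none of the other 8 genes, which is why it is shown here. Both annotated H2AX transcripts of GENCODE release 29 hold the histone stem-loop, searched for as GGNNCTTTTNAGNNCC with a fully paired stem on the transcript strand, and none of the annotated transcripts of the other 8 genes holds it. In the longer H2AX transcript, of 1614 bases, the stem-loop lies at bases 555 to 570 and a further 1044 bases follow it. In the shorter one 821 bases follow it. Such sequence is not particular to H2AX, since annotated transcripts of the clustered genes printed below also run past the stem-loop. There 1114 and 1128 bases follow it in H2AC6 and 18 to 1655 bases in H4C8. H2AX is known to give both a short message that ends at the stem-loop and a longer polyadenylated one. The libraries were made from RNA selected for poly(A) tails, and counts per gene do not show how much of the short message, if any, was carried along. Among protein-coding genes that were counted, with clustered histone genes not left out, 0.191% hold this pattern. It was found in 52.3% of the clustered replication-dependent histone genes with annotated transcripts (23 of 44). A gene without a match may still hold a stem-loop that departs from the pattern or lies outside its annotated transcripts. Capitals mark the paired stem in H2AX and in a pair of clustered genes described further on.
H2AX stem-loop: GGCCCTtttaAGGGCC
H2AC6 stem-loop: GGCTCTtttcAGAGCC
H4C8 stem-loop: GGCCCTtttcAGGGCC

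The CCAAT box is a short element bound by the factor NF-Y, and 5 of the 9 genes held it at least 3 times in their promoters. In RefSeq promoter windows of GRCh38.p14, from 250 bases before to 50 bases after a gene's start, CCAAT on either strand was found 4 times each in H2AX, H2AZ2 and H3-3B and 3 times each in H2AZ1 and H2AJ. No matches overlapped each other. At least 3 matches occurred in 3.26% and at least 4 in 0.991% of 35116 promoter windows. H1-10 and MACROH2A2 had 0 matches, and the alternative windows of MACROH2A1 and H3-3A had 0 to 2. TTTGAA, the letters of the cell cycle element CHR, occurred once each in H2AX and H2AZ1, and at least once in 15.2% of all windows. The E2F-type letters TTTGGCGC and TTTCCCGC were in none of the 13 windows of the 9 genes. The promoters of the 3 genes that fell at least 2-fold are shown beside that of H3-3B, which did not pass the test, since all 4 are rich in the same element. Capitals mark CCAAT or its reverse complement ATTGG.
H2AX promoter, chr11:119095416-119095715, minus strand: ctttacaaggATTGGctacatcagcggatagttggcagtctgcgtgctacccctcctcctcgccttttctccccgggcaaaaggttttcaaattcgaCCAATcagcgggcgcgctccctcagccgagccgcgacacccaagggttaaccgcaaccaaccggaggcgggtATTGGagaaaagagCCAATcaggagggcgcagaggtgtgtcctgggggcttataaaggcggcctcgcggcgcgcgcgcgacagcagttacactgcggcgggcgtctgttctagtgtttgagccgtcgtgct
H2AZ1 promoter, chr4:99950226-99950525, minus strand: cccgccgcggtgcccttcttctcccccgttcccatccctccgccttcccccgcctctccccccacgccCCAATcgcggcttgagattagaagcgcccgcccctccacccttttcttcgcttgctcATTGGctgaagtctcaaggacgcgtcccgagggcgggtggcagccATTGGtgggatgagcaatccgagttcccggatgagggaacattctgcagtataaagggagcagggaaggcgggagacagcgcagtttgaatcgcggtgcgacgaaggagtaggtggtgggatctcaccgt
H2AZ2 promoter, chr7:44848038-44848337, minus strand: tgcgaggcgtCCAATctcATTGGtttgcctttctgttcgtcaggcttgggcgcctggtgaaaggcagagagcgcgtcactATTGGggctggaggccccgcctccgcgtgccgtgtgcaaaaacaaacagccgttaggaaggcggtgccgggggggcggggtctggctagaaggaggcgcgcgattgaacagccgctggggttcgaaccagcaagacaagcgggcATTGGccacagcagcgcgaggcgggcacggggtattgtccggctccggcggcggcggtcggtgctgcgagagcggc
H3-3B promoter, chr17:75779730-75780029, minus strand: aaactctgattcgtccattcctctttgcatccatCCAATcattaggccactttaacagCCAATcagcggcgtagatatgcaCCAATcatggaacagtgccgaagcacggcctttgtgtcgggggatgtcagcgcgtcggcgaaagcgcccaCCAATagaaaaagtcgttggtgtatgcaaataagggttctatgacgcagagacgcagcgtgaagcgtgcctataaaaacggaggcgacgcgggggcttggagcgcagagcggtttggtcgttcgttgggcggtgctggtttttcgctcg

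H2AX (ENSG00000188486, chromosome 11, positions 119093854 to 119095467 of GRCh38, a gene of 1 exon) had 92.5 and 88.7 CPM in baicalein 1 and 2, against 286 and 293 CPM in control 1 and 2. The groups did not overlap, and libraries of a group lay close together. Such separation, in either direction, was found in 86.9% of all tested genes, so it sets few genes apart here. Its mean was 90.6 ± 2.71 CPM in baicalein-treated and 289.6 ± 4.55 CPM in control libraries. On the log2 scale the difference was -1.68 (SE 0.05, adjusted p = 4.34e-19 in edgeR's test). Of all tested genes, 6.87% had a log2 fold change this low or lower. With GC content and exon length corrected the value for H2AX was -1.30, and its longest transcript has a GC content of 66.4%.

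Among 2059 tested genes with a mean level within 2-fold of H2AX, those whose centred log2 CPM lay closest to it over the 4 libraries were KIF22, INCENP and TACC3. KIF22 codes for a mitotic kinesin, INCENP for a scaffold of the chromosomal passenger complex and TACC3 for a spindle protein. KIF22 averaged 50.04 ± 1.05 CPM in baicalein-treated and 160 ± 3.68 CPM in control libraries, at a distance of 0.0168 log2 units from H2AX. Likeness over 4 libraries is a description of these samples. With 2 libraries a group it rests largely on a similar fold change, such as -1.68 in both KIF22 and H2AX. Whether genes alike in this way share a function was not tested. By the same rule, and in order of distance, DCAF6, LSM4 and RFC4 stood beside H2AZ1, and GAS6, TFAP2C and NACC1 beside H2AZ2. The proliferation marker MKI67, set beside these as a point of comparison, fell with a log2 fold change of -2.08.

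Genes that phosphorylate H2AX, remove that phosphate or read it were lower in 11 and higher in 4 of 16 cases (median -0.24). Among all tested genes 37.6% were called lower and 37.4% higher. Beyond 1.5-fold only MRE11 and PRKDC were called, against 36.3% of all tested genes. MRE11, a nuclease of the break-sensing complex, had 34.2 and 32.6 CPM in baicalein-treated and 93.3 and 90.2 CPM in control libraries (-1.46, SE 0.05). PRKDC, which codes for a kinase of H2AX, had 330 and 325 CPM in baicalein-treated and 649 and 641 CPM in control libraries (-0.98, SE 0.04). The reader gene TP53BP1 fell with -0.42, and MCPH1, which codes for another reader, rose with 0.62. The kinase gene ATM was at 0.14, a call that was lost with library totals as the scale (0.03) and without either baicalein library (0.14 and 0.15), and its value was -0.05 with GC content and length corrected.

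H2AZ1 (ENSG00000164032, chromosome 4, positions 99948086 to 99950388) and H2AZ2 (ENSG00000105968, chromosome 7, positions 44826791 to 44848083) code for nearly identical forms of H2A.Z. H2AZ1 had 104 and 96.9 CPM in baicalein 1 and 2, against 236 and 224 CPM in control 1 and 2. Its log2 fold change was -1.19 (SE 0.05, adjusted p = 4.61e-16 in edgeR's test), with both treated libraries below both controls. H2AZ2 had 103 and 97.7 CPM in baicalein 1 and 2, against 202 and 200 CPM in control 1 and 2. Its log2 fold change was -1.005 (SE 0.04, adjusted p = 2.72e-15 in edgeR's test), again without overlap of the groups. Summed, the pair stood at 201 ± 8.44 CPM in baicalein-treated and 431 ± 10.6 CPM in control libraries. H2AZ2 held 49.6% and 50.2% of the pair's counts in baicalein 1 and 2, against 46.1% and 47.2% in control 1 and 2. The shares differed by 3.26 percentage points, and the larger SD between replicates was 0.761 points. An exact two-sided permutation test over 2 against 2 libraries gave p = 0.333, the smallest it can give, so shares are reported without a call.

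The subunits that exchange or remove H2A.Z moved in both directions, with 6 of 15 higher and 7 lower (median -0.13). These counts lie near the shares over all tested genes, 37.4% higher and 37.6% lower, and do not set the list apart. INO80, the ATPase of a remodeller that acts on H2A.Z nucleosomes, had 87.2 and 88.9 CPM in baicalein-treated and 39.04 and 41.2 CPM in control libraries (1.13, SE 0.05). ANP32E, a chaperone that takes H2A.Z out of chromatin, had 80.0 and 78.6 CPM in baicalein-treated and 169 and 155 CPM in control libraries (-1.03, SE 0.05). INO80 and ANP32E were the only members of the list called beyond 1.5-fold, against 36.3% of all tested genes. The acetyltransferase gene KAT5 rose with 0.65, the ATPase gene RUVBL1 fell with -0.60 and EP400, which codes for an ATPase that deposits H2A.Z, rose with 0.27. SRCAP, the other such ATPase gene, was at -0.13, a call that was lost without either baicalein library (-0.11 and -0.13) and with GC content and length corrected (-0.02).

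H2AJ (ENSG00000246705, chromosome 12, positions 14774383 to 14778002) codes for an H2A variant that is known to build up in senescent human fibroblasts and is present in luminal epithelia. It had 73.2 and 69.8 CPM in baicalein 1 and 2, against 121 and 127 CPM in control 1 and 2. The groups did not overlap (log2 fold change -0.80, SE 0.04, adjusted p = 2.31e-13 in edgeR's test).

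MACROH2A1 (ENSG00000113648, chromosome 5, positions 135333900 to 135399914) and MACROH2A2 (ENSG00000099284, chromosome 10, positions 70052796 to 70112280) code for the macroH2A proteins, known for their presence on the inactive X chromosome and in repressed chromatin. MACROH2A1 had 252 and 247 CPM in baicalein 1 and 2, against 331 and 333 CPM in control 1 and 2 (-0.41, SE 0.04, adjusted p = 8.26e-09 in edgeR's test). Its change was not called beyond 1.5-fold. MACROH2A2 had 27.7 and 28.5 CPM in baicalein 1 and 2, against 45.3 and 46.0 CPM in control 1 and 2 (-0.70, SE 0.05, adjusted p = 5.53e-11 in edgeR's test). For both genes the treated libraries lay below the controls. MACROH2A2 held 9.91% and 10.3% of the pair's counts in baicalein 1 and 2, against 12.0% and 12.2% in control 1 and 2, and these shares depend on how exon length is treated. Per kilobase of exon its share was 50.2 ± 0.837% in baicalein-treated and 55.2 ± 0.218% in control libraries. That measure divides MACROH2A1 by 17730 bases, the joined exons of 20 transcripts. With the median length of coding transcripts MACROH2A2 averaged 19.5 and MACROH2A1 134 CPM per kilobase in baicalein-treated libraries. In control libraries they averaged 31.6 and 179 CPM per kilobase.

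MACROH2A1 is spliced into forms of which only some bind ADP-ribose, and counts per gene do not separate them. QKI, a regulator of that exon choice, had 59.8 and 63.9 CPM in baicalein-treated and 41.3 and 38.2 CPM in control libraries (0.63, SE 0.05). Of 4 splicing regulators 2 were higher and 1 lower, or 1 higher without either baicalein library and 2 lower without control 2. With library totals or with GC content and length corrected 1 was higher and 2 lower, and 2 were lower with upper quartile scaling. The others on the list, MBNL1, DDX5 and DDX17, were at -0.23, -0.07 and 0.13, and the last call was lost without either baicalein library (0.16 and 0.11) and with library totals (0.03). Of 7 genes that make, bind or remove ADP-ribose, 4 were lower and 2 higher, or 1 higher with a filter of 50 counts in 2 libraries. For both lists the shares over all tested genes were 37.4% higher and 37.6% lower. PARP1, the main nuclear ADP-ribosyl transferase, had 249 and 256 CPM in baicalein-treated and 428 and 447 CPM in control libraries (-0.80, SE 0.04). PARP2 and the remodeller gene CHD1L fell with -0.40 and -0.42, and MACROD1 was at -0.46, or -0.05 and not called with GC content and length corrected.

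**Figure D1:**
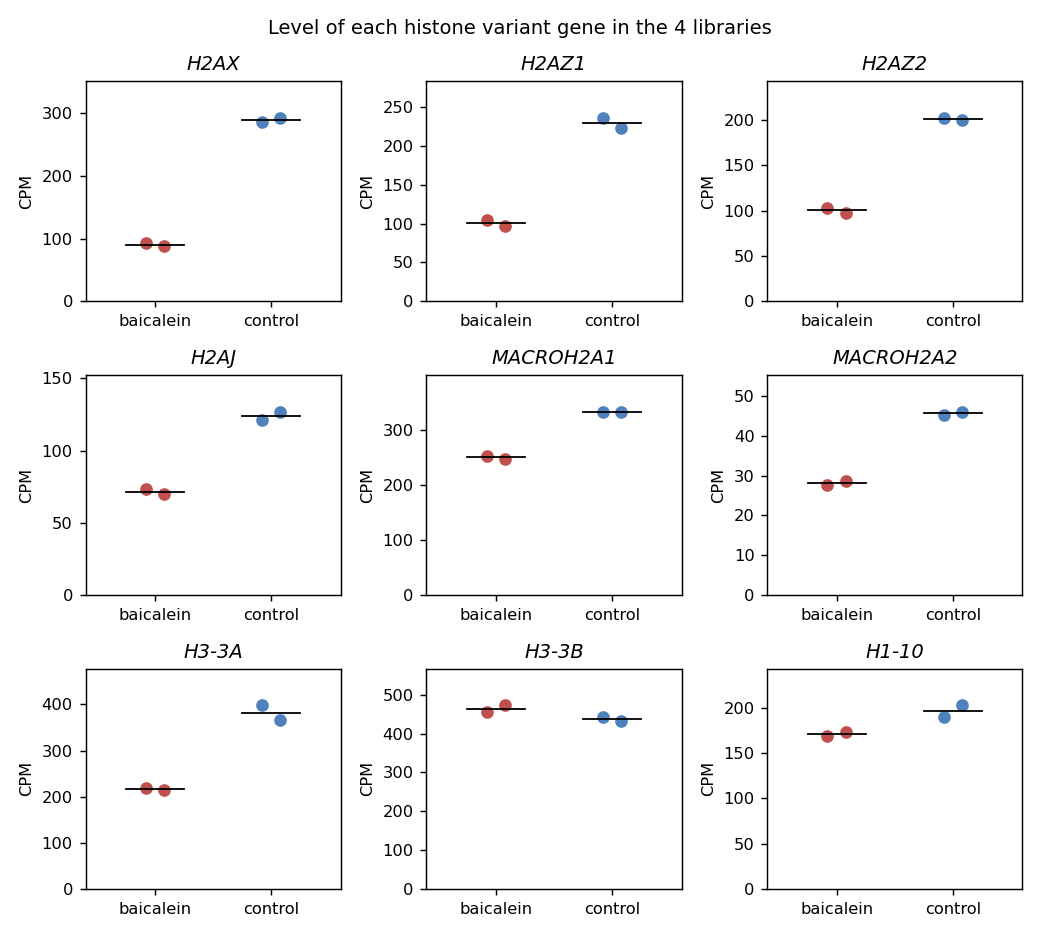
Level in CPM (vertical axes, each from 0) of the 9 histone variant genes in baicalein-treated (left, red) and control libraries (right, blue). Points are libraries and bars are group means. In 8 panels both treated libraries lie below both controls, and H3-3B, at 456 and 473 against 444 and 433 CPM, is the exception. The groups were separated, in either direction, in 86.9% of all tested genes.

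H3-3A (ENSG00000163041, chromosome 1, positions 226061851 to 226072001) and H3-3B (ENSG00000132475, chromosome 17, positions 75776434 to 75785893) code for the same H3.3 protein from differently built genes, and their values differed in direction. H3-3A had 219.7 and 214 CPM in baicalein 1 and 2, against 398 and 366 CPM in control 1 and 2. Its log2 fold change was -0.82 (SE 0.05, adjusted p = 2.78e-13 in edgeR's test), with no overlap of the groups. H3-3B had 456 and 473 CPM in baicalein 1 and 2, against 444 and 433 CPM in control 1 and 2. Its log2 fold change was 0.08 (SE 0.04, adjusted p = 0.0764 in edgeR's test), which did not pass, although both treated libraries lay above both controls. The call on H3-3B depended on the settings. It passed with 0.10 without control 1 and 0.07 without control 2, and the value was -0.02 with library totals as the scale.

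H3-3B held 67.5% (95% Wilson interval 67.0% to 68.0%) and 68.9% (68.3% to 69.5%) of the pair's counts in baicalein 1 and 2. In control 1 and 2 it held 52.7% (52.2% to 53.2%) and 54.2% (53.7% to 54.7%). The intervals cover counting error only. The shares differed by 14.7 percentage points, while the larger SD between replicates was 1.07 points, and the exact two-sided permutation p was 0.333, the smallest possible with 2 against 2. Per kilobase of exon the difference was 15.3 points. Both genes together stood at 676 and 687 CPM in baicalein-treated and 842 and 799 CPM in control libraries, a ratio of means of 0.830. H3P6, a processed pseudogene whose older name H3F3AP4 ties it to H3-3A, had 33.5 and 29.9 CPM in baicalein-treated and 48.8 and 58.5 CPM in control libraries. Reads shared with such copies make the split uncertain, and with H3P6 added to H3-3A the log2 fold change of H3-3A was -0.81.

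**Figure D2:**
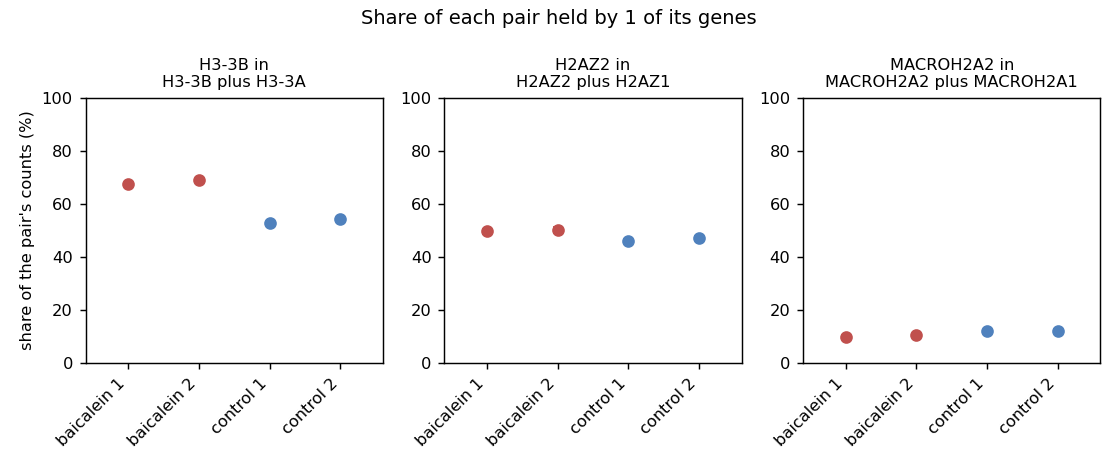
Share (%, vertical axes from 0 to 100) of the counts of each gene pair held by the gene named first, in each library (baicalein-treated red, control blue). Bars are 95% Wilson intervals, mostly smaller than the points. H3-3B holds 67.5% and 68.9% in the treated libraries and 52.7% and 54.2% in the controls.

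H3.3 enters chromatin outside S phase through chaperones of its own. Of 7 genes for H3.3 chaperones 5 were higher and 2 lower (median 0.39), beside 37.4% higher and 37.6% lower among all tested genes. UBN2 and UBN1, which code for partners of HIRA in the complex that deposits H3.3 at genes, rose with 0.92 (SE 0.06) and 0.67 (SE 0.04). ASF1A, which hands histones to that complex, had 19.6 and 20.1 CPM in baicalein-treated and 12.0 and 9.78 CPM in control libraries (0.86, SE 0.09). HIRA itself had 42.7 and 42.8 CPM in baicalein-treated and 32.9 and 32.2 CPM in control libraries (0.39, SE 0.05). CABIN1, a further partner, fell with -0.48 and DAXX, which deposits H3.3 at repeats, with -0.38. ATRX, the partner of DAXX, was at 0.13, a call lost without either baicalein library (0.13 and 0.15) and with library totals (0.03), and its value was -0.06 with GC content and length corrected.

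Of 12 genes that supply H3 and H4 at replication forks, 10 were lower and 0 higher (median -1.56). With GC content and length corrected 1 was higher. Beyond 1.5-fold 9 were lower. Among all tested genes 37.6% were called lower, and 19.5% were lower beyond 1.5-fold. TONSL, which binds new H4 behind the fork, had 14.8 and 15.2 CPM in baicalein-treated and 116 and 120.0 CPM in control libraries (-2.98, SE 0.05). ASF1B, the paralog of ASF1A, had 4.81 and 5.53 CPM in baicalein-treated and 40.8 and 38.6 CPM in control libraries (-2.95, SE 0.08). The CAF-1 subunit genes CHAF1B and CHAF1A fell with -2.06 and -1.90. ASF1A and ASF1B thus had log2 fold changes of opposite sign, 0.86 and -2.95.

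The centromeric H3 variant gene CENPA fell little, with 13.1 and 12.6 CPM in baicalein-treated and 15.96 and 16.2 CPM in control libraries (-0.32, SE 0.08). Among genes that load its protein, OIP5 fell with -2.26, the chaperone gene HJURP with -2.00 and MIS18A with -1.20. Beside 37.6% lower and 37.4% higher among all tested genes, 5 of 7 chaperone genes for H2A and H2B were lower and 2 higher. Without baicalein 2 there were 3 lower, and with library totals or with GC content and length corrected there was 1 higher. The importin gene IPO9 fell with -0.84, the FACT subunit genes SUPT16H and SSRP1 with -0.42 and -0.36, and the nucleophosmin gene NPM1 rose with 0.55.

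**Figure D3:**
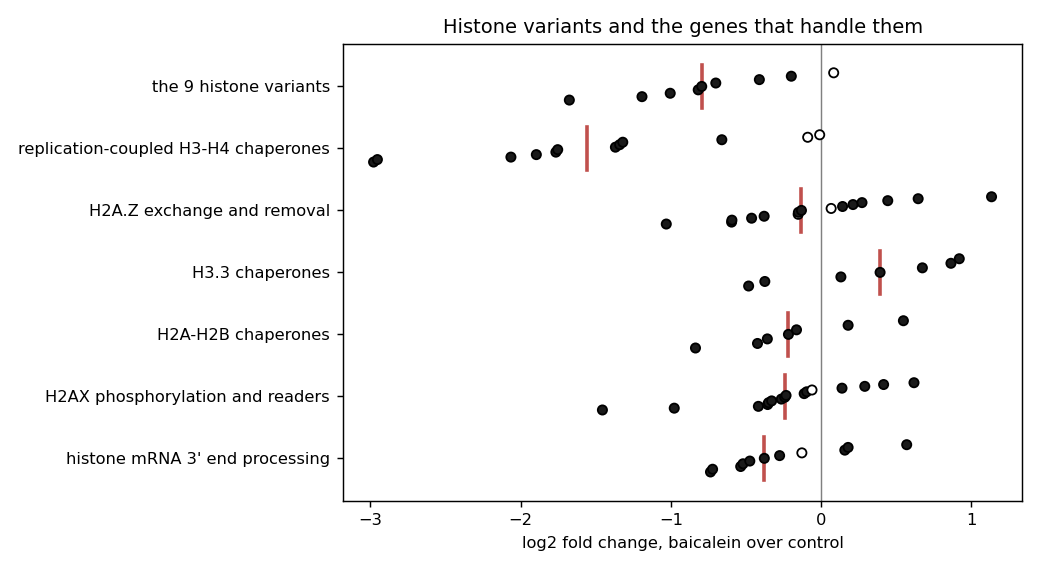
Log2 fold change, baicalein over control (horizontal axis), of the 9 histone variant genes and of the genes in 6 lists of factors that handle histones. Filled points passed edgeR's test at an adjusted p under 0.05, open points did not, and red bars are medians. The replication-coupled list lies lowest, with a median of -1.56, and the H3.3 chaperones have a median of 0.39.

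H1-10 (ENSG00000184897, chromosome 3, positions 129314771 to 129316277, a gene of 1 exon) had 168 and 173 CPM in baicalein 1 and 2, against 189.5 and 202 CPM in control 1 and 2. The treated libraries lay below the controls by a margin close to the gap between the controls (log2 fold change -0.20, SE 0.05, adjusted p = 0.000481 in edgeR's test). The change was not called beyond 1.5-fold. With GC content and exon length corrected it turned to 0.23 (adjusted p = 1.79e-06), and the single annotated H1-10 transcript, with 68.6% GC, has the highest GC content among the 9 genes. The direction for H1-10 therefore depends on that correction.

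The clustered linker histone genes that could be tested were called higher. H1-2 averaged 29.6 ± 0.245 CPM in baicalein-treated and 13.1 ± 1.19 CPM in control libraries. H1-3, H1-4 and H1-6 were called higher too but stayed under 1 CPM in every library, and without control 2 or baicalein 2 H1-5 also entered the test and was called lower.

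**Figure D4:**
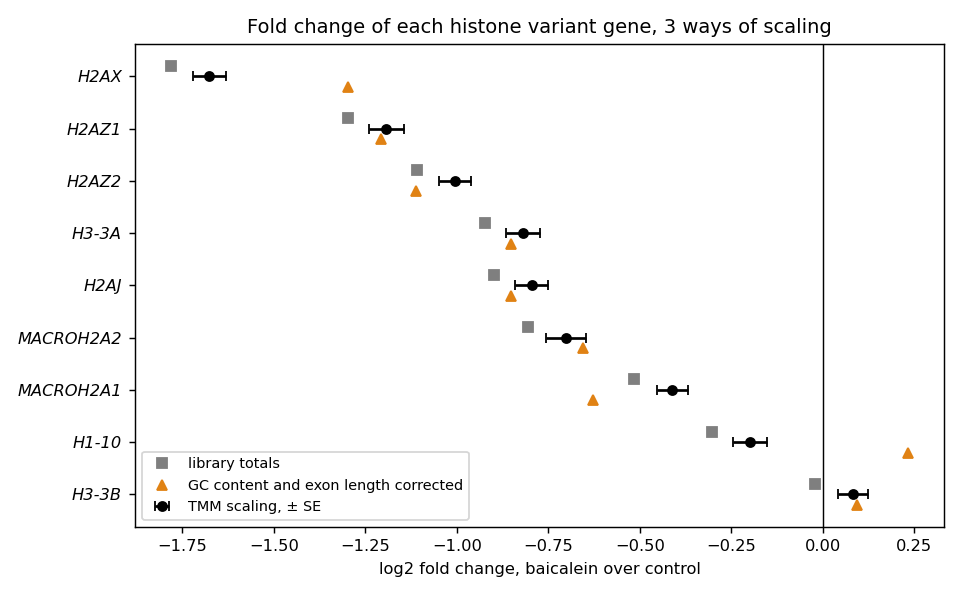
Log2 fold change, baicalein over control (horizontal axis), of the 9 genes with TMM scaling (black, ± SE), with library totals (grey squares) and with GC content and exon length corrected (orange triangles). H2AX to MACROH2A1 stay below 0 in all 3, while H1-10 turns from -0.20 to 0.23 with the correction and H3-3B from 0.08 to -0.02 with library totals.

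Clustered replication-dependent histone genes were mostly higher after baicalein, whereas 37.4% of all tested genes were called higher and 37.6% lower. Of 48 such genes counted, 39 passed the filter, and 27 were higher and 2 lower, H4C3 and H2AC20 (median 1.41, unchanged with H1-6, which had no control count, at its bound). The number of lower ones was 1 without control 1, 6 without control 2, 4 with no filter and 1 with DESeq2, and neither H4C3 nor H2AC20 passed a filter of 50 counts in 2 libraries. All 48 summed to 619 and 618 CPM in baicalein-treated and 227 and 211 CPM in control libraries, and the 9 variant genes to 1496 and 1489 CPM in baicalein-treated and 2254 and 2224 CPM in control libraries. H4C8 and H2BC15 had the largest rises named by rule, 2.79 (SE 0.08) and 2.67 (SE 0.10), and H2BC21 followed with 2.57. H2AC6, a clustered H2A gene, had 86.5 and 84.2 CPM in baicalein-treated and 20.7 and 18.5 CPM in control libraries. H2AX counts were 1.07 and 1.05 times those of H2AC6 in baicalein 1 and 2, against 13.9 and 15.9 times in control 1 and 2. As for H2AX, poly(A) selection is meant to leave out messages that end at the stem-loop, and how far it did was not measured. Reads shared between near-identical clustered copies make their split uncertain.

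**Figure D5:**
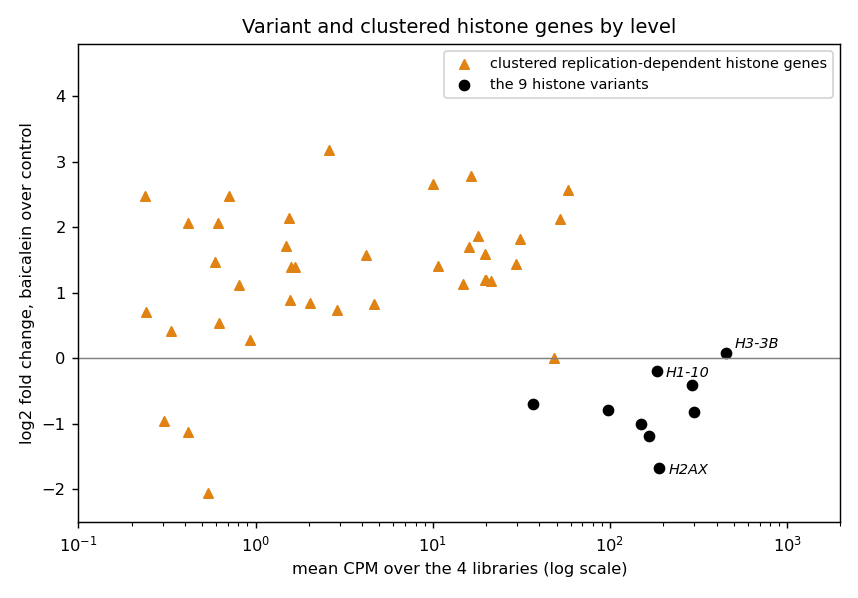
Log2 fold change, baicalein over control (vertical axis), against the mean CPM of the 4 libraries (horizontal log axis) for the 9 variant genes (black) and 38 of the 39 tested clustered genes (orange, without H1-6, which had no control count). Most clustered genes lie above 0 with a median of 1.41 and the variants mostly below, with H2AX lowest among them at -1.68.

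Of 11 genes for 3′ end processing of histone messages, 7 were lower and 3 higher (median -0.38), or 8 lower and 1 higher both with library totals and with GC content and length corrected. SLBP, which codes for the protein that binds the stem-loop shown above, had 67.5 and 66.4 CPM in baicalein-treated and 82.0 and 80.2 CPM in control libraries (-0.28, SE 0.05). CSTF2, CASP8AP2 and ERI1, which code for a cleavage factor, a histone locus body protein and a 3′ exonuclease, fell with -0.74, -0.72 and -0.54. LSM10, a subunit of the U7 snRNP, rose with 0.57.

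Levels of the 9 genes were compared with each other per kilobase of annotated exon. In baicalein-treated cells H1-10 was highest at 113 ± 2.54 CPM per kilobase, followed by H3-3B at 75.7 ± 1.95, H3-3A at 68.9 ± 1.37 and H2AX at 56.1 ± 1.68. In controls H2AX was highest at 179 ± 2.82 CPM per kilobase, followed by H1-10 at 130 ± 6.04 and H3-3A at 121 ± 7.23, which lie within their spread. H3-3B stood at 71.5 ± 1.18 CPM per kilobase in controls, below H2AZ1 at 99.8 ± 3.87. In baicalein-treated cells H2AJ and H2AZ2, at 21.3 ± 0.725 and 21.1 ± 0.716, and MACROH2A2 and MACROH2A1, at 14.2 ± 0.2997 and 14.1 ± 0.174, did not differ beyond their spread. The order depends on the length used. With the median length of coding transcripts H3-3B was highest in both groups, at 799.6 ± 20.6 CPM per kilobase in baicalein-treated and 755 ± 12.5 in control libraries, and MACROH2A2 lowest.

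Some exons of these genes overlap genes on the opposite strand, and the sources used here do not say whether strand was used in counting. The longest overlap is that of MACROH2A1 with PITX1-AS1, over 4968 bases, and PITX1-AS1 averaged 6.05 ± 0.392 CPM in baicalein-treated and 4.10 ± 0.812 CPM in control libraries. H3-3B shares 214 exonic bases with UNK, at 42.5 ± 0.0898 CPM in baicalein-treated and 43.9 ± 0.849 CPM in control libraries. H1-10 shares 345 bases with H1-10-AS1, which stayed under 2 CPM in every library.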

How the data were processed

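RNA was measured in 4 libraries of T47D cells, 2 baicalein-treated and 2 controls. The values are counts, deposited by the authors as whole numbers for 20515 genes with no scaling to library size. Per the submitters' processing notes the tools were STAR 2.7.8a, RSEM 1.3.3, cutadapt 2.3, DESeq2 1.34 and FastQC 0.11.8, with the build GRCh38, in roles not stated. The sources used here do not give the annotation release, the strand setting or any rounding of RSEM estimates, and the smallest row total is 10. Groups and replicate numbers come from the sample titles.

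The test was edgeR 4.0.16 under R 4.3.3 (TMM scaling, filterByExpr at 10 counts per library and 15 in total, robust quasi-likelihood fit) on all 4 libraries without covariates. The fit kept 18369 genes, and p-values were adjusted over all of them by Benjamini-Hochberg, with a threshold of 0.05. The SE is the log2 fold change divided by the square root of F. Alternatives were DESeq2 size factors, upper quartile scaling, library totals, other filters, DESeq2 1.42.0, limma-voom (limma 3.58.1), the replicate number as a block, a 1.5-fold threshold in the test, a loess correction for GC content and exon length (span 0.3, per library), and leaving out each library. Adding H3P6 to H3-3A was chosen after seeing the data. Data were simulated at the control levels of this comparison over 17676 genes, with 50 genes each changed by 1.2, 1.5, 2 and 4 fold. Of these, 42%, 86%, 90% and 98% were recovered. False calls were 17 of 175, a larger share than the threshold of 0.05. In the data themselves 75.0% of tested genes were called, far more than were changed in the simulation. Scaling and error control with so many changed genes were therefore not tested.

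The members and gene lists were chosen with earlier results of these data known. The text names all 9 members, up to 4 genes per list by the largest log2 fold change among called genes with a mean log2 CPM of at least 1 and groups that do not overlap, a fixed set of chaperones and markers, and 3 genes nearest in pattern to each member past 2-fold. Genes named outside this rule (DDX5, H3P6, H1-3, H1-4, H1-6, the markers without rows, PTPRC, COL1A1, PITX1-AS1, UNK, H1-10-AS1, H1-5, H4C3 and H2AC20) were chosen after their values were seen. Exon lengths, coordinates and transcripts are from GENCODE 29, and promoters from RefSeq. Median coding transcript lengths give another order of levels. Results for some genes of the lists are not reported here.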

Additional observations from a re-analysis of the deposited data

How the results depend on the processing

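The 8 falls among the variant genes kept their direction and their call in each alternative, except that MACROH2A1 (-0.41) and H1-10 (-0.20) were not called beyond 1.5-fold and H1-10 turned to 0.23 with GC content and exon length corrected. H3-3B, at 0.08 and not called with the main settings, was called with a filter of 50 counts in 2 libraries (0.0933), with the GC and length correction (0.0925) and without control 1 or control 2, over a range of 0.066 to 0.1151 when each library was left out, and was at -0.0206 with library totals. Genes called higher among the 9 were therefore 1 with that filter, 2 with the correction and 0 to 1 with a library left out. Over all genes 3090 were higher and 3581 lower beyond 1.5-fold. Library totals shifted the median of all genes by -0.10 on the log2 scale and made 43.4% of calls higher ones, against 49.9% with TMM. Per kilobase of exon, the share of MACROH2A2 in its pair was lower by -4.97 points in place of -1.97. With the correction ATM, ATRX and DDX17 turned to -0.0539, -0.06 and -0.0642. RN7SK was at 0.507 without control 1 and -2.3564 without control 2. The median of the macroH2A1 splicing list turned to -0.0037 with upper quartile scaling, -0.0756 with library totals and -0.1494 with the correction. The cause of these changes was not tested. With the replicate number as a block 6894 genes were higher and 6909 lower, and 8 of the 9 genes were lower as before. Between libraries with the same number, deviations from the group mean had a correlation of 0.0136 over 18369 genes. With 2 libraries a group, this value cannot show whether such libraries share a culture.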
